A study of Mus musculus with 6 samples.

Results

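Cytokines, chemokines, ligands and receptors of the tumour necrosis factor (TNF) superfamily, and the subunits and inhibitors of NF-kB were examined in isolated mouse pancreatic islets. The members were matched by name, with earlier results of these data known. They are the numbered CC and CXC chemokine ligands and receptors, every numbered interleukin, interleukin receptor or gene with a name built on one, every gene whose symbol starts with Tnfsf, Tnfrsf or Tnfaip, Cx3cl1, Tnf, the 5 NF-kB subunits, 4 IkB genes and the 3 IKK subunits. This gave 186 of 48321 gene names in the table, and all 186 matched a mouse gene symbol. Family members with another kind of symbol, such as Lta, Ltb, Fas and Cd40, were not members and were read with the other pathway genes.

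The study compared the diets of wild-type C57BL6 mice. One group was fed normal chow, with no age or feeding time of its own in the labels, and the other received a diet with 60% of calories from fat for 4 months from 3 months of age. There were 3 columns per diet, but in 48321 of 48321 rows chow replicate 2 was exactly midway between chow replicates 1 and 3, so that column was left out and 5 libraries were compared, chow replicates 1 and 3 and high-fat replicates 1, 2 and 3. The labels do not say whether a library holds 1 animal or a pool, so p-values measure only the spread between these libraries. Values are CPM, the reads of a gene scaled to library size. Log2 differences are high-fat minus chow on the log2(CPM + 1) scale, which understates the change of low genes. The columns did not share a total: they summed to 841705 and 674482 CPM on chow and 963615, 832416 and 879301 CPM on high fat. The part of these totals in the differences was not tested. limma tested genes that averaged 0.5 CPM or more, and a gene was called at a Benjamini-Hochberg adjusted p below 0.05 over all 16939 genes tested.

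Chemokines are secreted proteins that direct leukocyte migration through G protein-coupled receptors, and interleukins and TNF superfamily ligands signal through their own receptor families. Many of these receptors lead to the IKK complex, which phosphorylates IkB inhibitors so that they are degraded and NF-kB dimers enter the nucleus. NF-kB then drives genes for cytokines and for its own inhibitors, among them Nfkbia and Tnfaip3. Beta cells, the insulin-producing cells of the islet, carry the interleukin-1 receptor, and interleukin-1 signalling has long been studied there as an inflammatory input in diabetes.

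Promoters of 4 members are shown because each holds a match to the kB consensus, the DNA element that NF-kB dimers bind, and because the 4 genes did not move alike. Cxcl10 and Tnfrsf9 are 2 members that were higher on the high-fat diet, and Nfkbia and Tnfaip3 are feedback inhibitors whose difference did not pass the threshold. Each line gives the 250 bases before a start of the gene, 5′ to 3′ on the gene's strand, from RefSeq on GRCm38.p6, with matches in capitals. They are Cxcl10 at chr5:92348890-92349139 (minus strand), Tnfrsf9 at chr4:150927749-150927998 (plus strand), Nfkbia at chr12:55492648-55492897 (minus strand) and Tnfaip3 at chr10:19015411-19015660 (minus strand).
Cxcl10: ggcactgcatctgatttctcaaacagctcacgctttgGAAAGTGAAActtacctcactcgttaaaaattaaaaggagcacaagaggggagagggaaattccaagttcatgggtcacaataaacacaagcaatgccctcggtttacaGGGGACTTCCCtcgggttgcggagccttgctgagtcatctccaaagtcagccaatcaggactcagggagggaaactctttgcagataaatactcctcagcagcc
Tnfrsf9: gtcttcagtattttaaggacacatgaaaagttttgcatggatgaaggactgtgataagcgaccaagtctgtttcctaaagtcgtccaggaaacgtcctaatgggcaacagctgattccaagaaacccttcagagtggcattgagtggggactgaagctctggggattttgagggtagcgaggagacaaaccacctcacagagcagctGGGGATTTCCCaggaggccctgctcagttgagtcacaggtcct
Nfkbia: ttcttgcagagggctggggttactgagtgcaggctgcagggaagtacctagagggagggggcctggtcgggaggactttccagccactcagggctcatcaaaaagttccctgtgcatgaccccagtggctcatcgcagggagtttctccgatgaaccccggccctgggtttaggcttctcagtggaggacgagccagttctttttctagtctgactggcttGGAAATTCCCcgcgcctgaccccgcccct
Tnfaip3: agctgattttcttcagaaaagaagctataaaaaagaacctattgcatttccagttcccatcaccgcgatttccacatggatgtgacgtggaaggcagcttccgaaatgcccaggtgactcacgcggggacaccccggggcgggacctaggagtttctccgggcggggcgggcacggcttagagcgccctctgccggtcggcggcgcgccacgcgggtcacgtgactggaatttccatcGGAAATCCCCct
RefSeq gives Tnfrsf9 and Tnfaip3 another start each, and those windows, not printed, hold no kB match. The match lies 104 bases before the start in Cxcl10, 43 in Tnfrsf9, 29 in Nfkbia and 12 in Tnfaip3, and in Cxcl10 and Tnfrsf9 a second match overlaps the first by all but 1 base. In Cxcl10 the capitals 213 bases before the start mark the core of the interferon-stimulated element, here a pair of GAAA runs 2 bases apart. Both strands were searched, in windows from 250 bases before to 50 after each start, and the 2 motifs do not overlap in the Cxcl10 sequence.

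The set of RefSeq promoters used here held 141 of the 186 members, some with more than 1 start. Of the 11 members called higher it held 9, without Nfkb1 and Il17ra, which were not searched. The kB consensus was found in 25 of 168 member windows (14.9%), against 5.8% of all 32851 windows, and the interferon-stimulated core in 10 (5.95%), against 3.44%. Of the windows of called members, 2 of 10 from genes called higher held a kB match, those of Cxcl10 and Tnfrsf9, and 0 of 6 from genes called lower. The interferon-stimulated core was in 1 of the 10 windows from genes called higher, that of Cxcl10. It was in 2 of the 6 from genes called lower, those of Cxcl14 and Tnfrsf1b. Of the 81 windows of all tested members, 13 held a kB match and 6 the interferon-stimulated core. A match is a run of letters and not a measured binding site.

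Most of these genes were low in islets. Of the 186 members, 86 passed the filter and 100 did not, 25 were under 3 reads in every library and 4 were at 0 in all 5. Just inside the filter lay Ccl5 and Cxcl9, with means of 0.510 and 0.552 CPM, and just outside lay Il1rl2 and Il21r, with 0.477 and 0.468 CPM. The tested share ran from every NF-kB, IkB and IKK gene to 6 of 40 interleukins and their antagonists. Between these lay the other roles: 24 of 41 interleukin receptors, 14 of 20 TNF receptors, 12 of 33 chemokine ligands, 7 of 13 TNF ligands, 6 of 8 TNFAIP genes and 4 of 16 chemokine receptors passed.

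**Figure D1:**
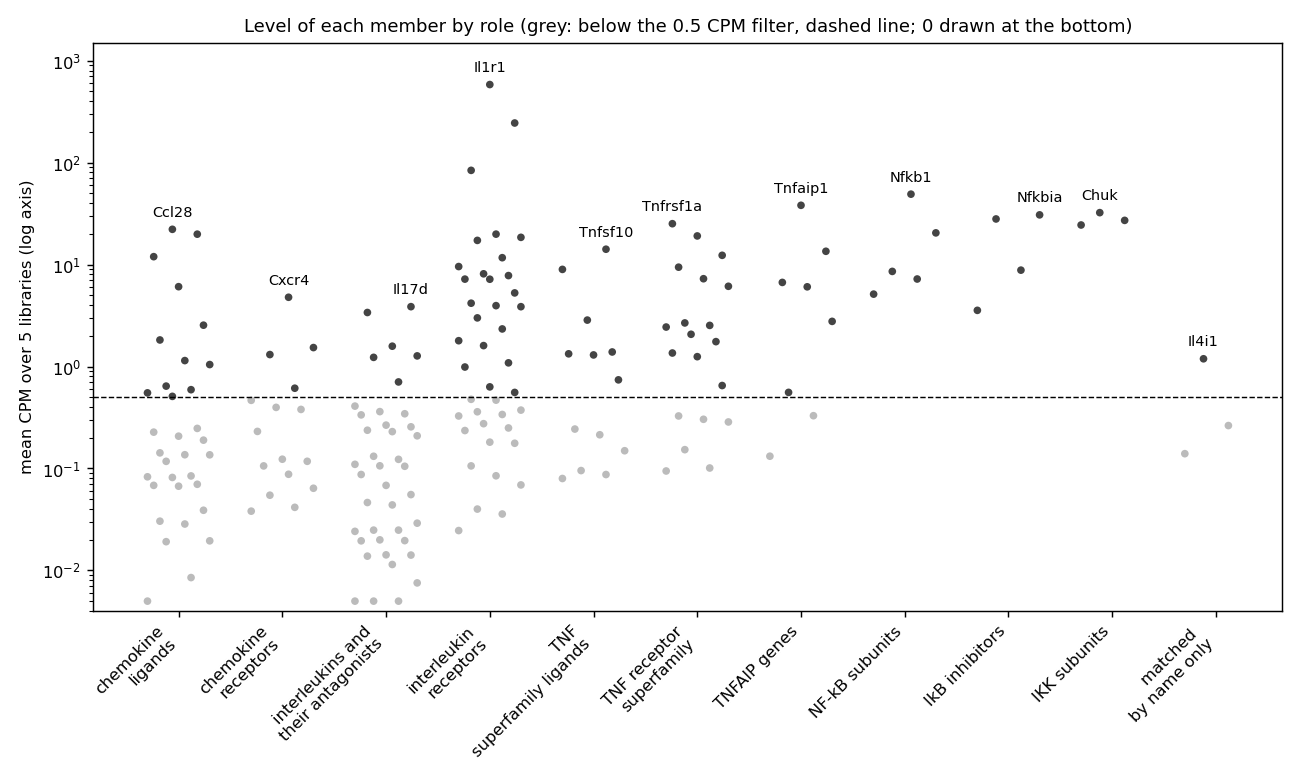
Mean CPM over the 5 libraries (log axis) for each of the 186 members by role, with the 86 tested members in dark grey and the 100 below the 0.5 CPM filter in light grey. Interleukin receptors reach the highest values, while most interleukins lie below the dashed line of the filter.

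Per kilobase of exon, Il1r1, the signalling receptor of interleukin-1, had the highest level of all members at 91.6 CPM per kb. It was followed by Il6ra, the ligand-binding chain of the interleukin-6 receptor, at 28.3 CPM per kb, then by Nfkbia at 19.1, Tnfaip1 at 10.1, the TNF receptor Tnfrsf1a at 9.71, the shared signalling chain Il6st at 7.56 and the NF-kB subunit Rela at 6.66 CPM per kb. Exon lengths came from an annotation that may not be the one the authors counted with.

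Of the 86 tested members, 16 were called (18.6%), 11 higher and 5 lower after high-fat feeding, against 23.7% of all genes tested, 14.9% higher and 8.78% lower. The 2 diets did not overlap for 50 of 86 members (58.1%), 24 higher and 26 lower, against 55.4% of all genes, 32.8% higher and 22.5% lower. The median log2 difference was 0.06 over the members and 0.05 over all genes. The shares in either direction and the medians lie near the background, so the results below concern single genes. By direction, members without overlap were lower (26) slightly more often than higher (24), whereas all genes were more often higher. In bulk RNA, fewer cells of a type and less RNA per cell cannot be told apart.

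**Figure D2:**
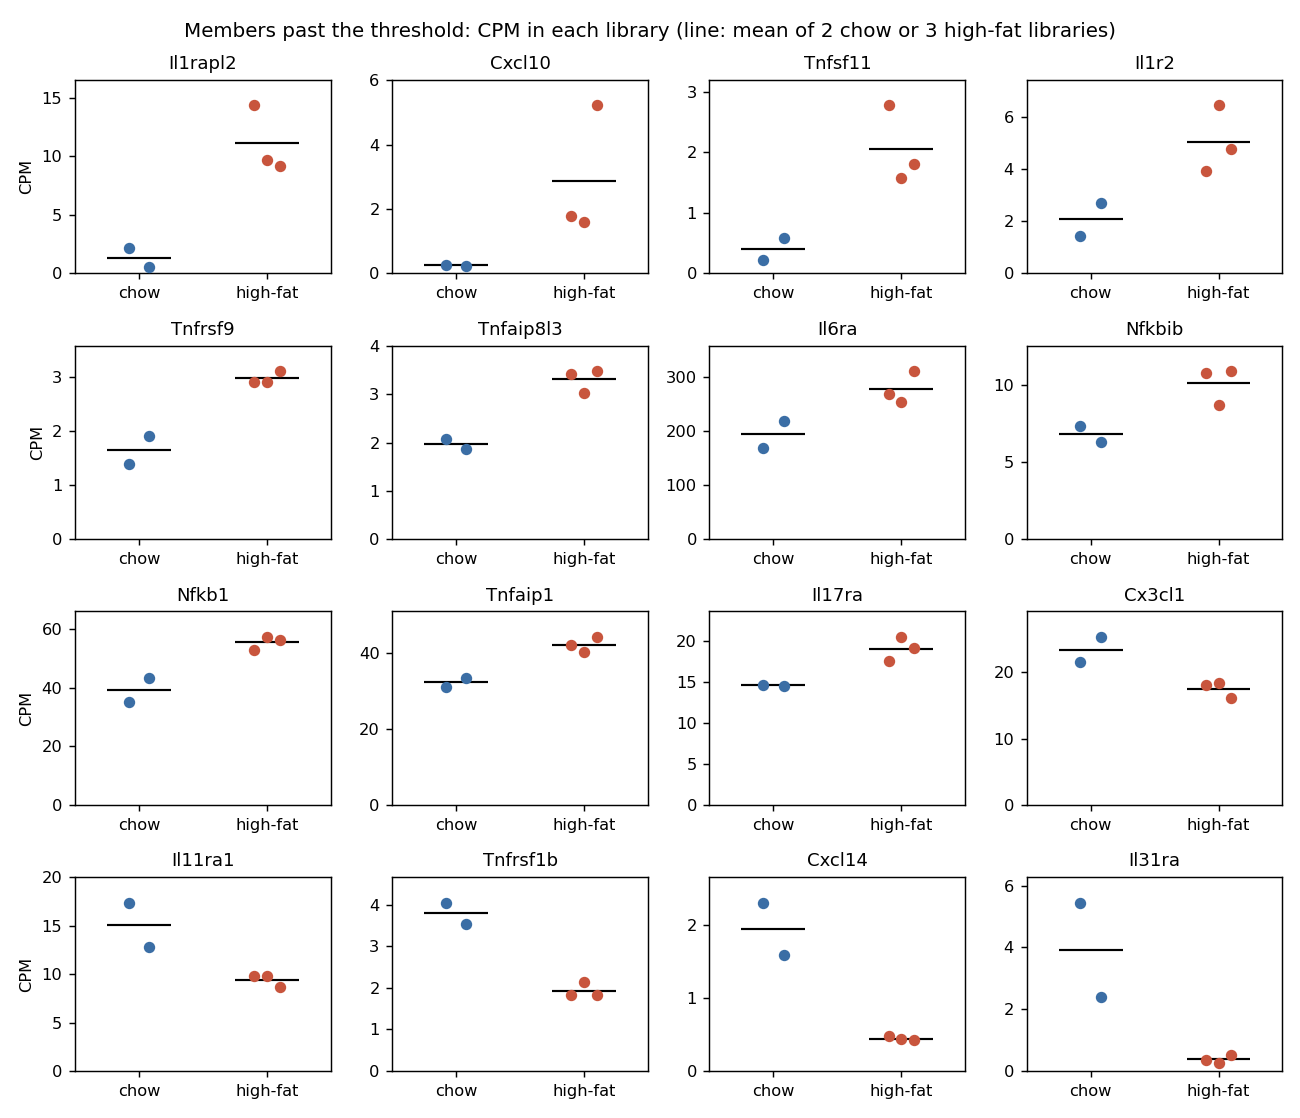
CPM in each library for the 16 called members, with chow in blue, high-fat in red and a line at each diet's mean. No panel shows an overlap between the 2 chow and the 3 high-fat libraries.

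Markers of other cell types differed between libraries, some with the diets. Acinar genes made up 29.7% and 11.4% of all CPM with chow, against 12.2%, 1.65% and 4.90% with the high-fat diet. The diets overlapped in that sum, but 29 of 30 acinar genes had a log2 difference below 0 and 1 above, with a median of -1.58. By limma 2 of 30 were called, both lower (Prss3 and Amy1), and 9 had an unadjusted p below 0.05. Of 12 fibroblast and stellate markers tested, 8 were lower and 0 higher, with Thy1, Dcn, Col3a1 and Acta2 the 4 smallest p-values, and their summed level was 391 and 292 CPM across chow libraries and 161, 189 and 204 CPM in the high-fat libraries. Of 12 endothelial markers 4 were lower, namely Tek, Vwf, Ackr1 and Pecam1, and of 14 beta-cell genes 5 were higher. Over all genes tested 14.9% were higher and 8.78% lower. Beta-cell genes made up 7.13% and 12.3% of all CPM with chow, against 9.46%, 11.9% and 10.4% with the high-fat diet, again with overlap. Rn7sk and Rpph1, small RNAs without a poly(A) tail, were at 6.27 and 13.3 CPM and at 0.425 and 0.0810 CPM in chow, and between 3192 and 4083 CPM in every high-fat library. The name prefix of the libraries also changes with diet. The labels do not say what it marks, and it cannot be told apart from diet. The part of these features in the results below was not tested.

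Calls among leukocyte markers stand beside 23.7% of all genes tested, 14.9% higher and 8.78% lower. Of 8 general leukocyte genes 0 were called (limma, 1 at an unadjusted p below 0.05), and their summed level was 37.8 and 27.2 CPM on chow against 29.4, 35.2 and 39.3 CPM on high fat. Of 15 macrophage markers tested C1qa was higher and Mrc1 and Itgam lower (20% called). Of 6 dendritic-cell markers and of 1 neutrophil or mast-cell marker tested, 0 were called by limma, with 0 at an unadjusted p below 0.05. Of 6 B-cell and plasma-cell markers tested Cd79a was lower (16.7% called). Of 14 T- and NK-cell genes only 3 passed the filter, and Cd3e alone was called, at 0.214 and 0.122 CPM with chow and 3.87, 4.20 and 3.09 CPM with the high-fat diet (log2 difference 2.01). Cd3d and Cd3g, which encode the partner chains of CD3, were below the filter and at no more than 0.160 CPM in any library.

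Among chemokine ligands, 1 of 12 tested was higher and 2 were lower (25%, against 23.7% of all genes tested), with a median log2 difference of 0.10. Cxcl10, an interferon-induced attractant of activated T cells, was at 0.266 and 0.243 CPM across chow libraries and 1.77, 1.59 and 5.23 CPM in the high-fat libraries. High-fat replicate 3 was the highest, and the lowest high-fat library lay above both chow libraries. The difference was 1.5 ± 0.37 (SE; limma adjusted p = 0.0293). Its call was lost without chow replicate 1 (adjusted p = 0.105) and without chow replicate 3 (adjusted p = 0.0768), each of which leaves a single chow library. Exons of Cxcl10 share 133 bases with Art3 on the opposite strand, and the sources used here do not say whether counting used strand.

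The related ligands, chosen after their values were seen, were not called. Cxcl9 was at 0.744 and 0.0810 CPM on chow against 0.253, 0.743 and 0.936 CPM on high fat (0.24, adjusted p = 0.558), and its diets overlapped. Cxcl11 was below the filter, at 0.0548 and 0.0818 CPM with chow and 0.256, 0.317 and 0.426 CPM with the high-fat diet. Their shared receptor, Cxcr3, was below the filter and under 0.17 CPM in every library.

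Cxcl14, a chemokine of epithelia and stroma, was at 2.31 and 1.59 CPM across chow libraries and 0.483, 0.430 and 0.417 CPM in the high-fat libraries. All 3 high-fat libraries lay below both chow libraries, by -1.02 ± 0.17 (SE; limma adjusted p = 0.00765), and its call held whichever library was left out. Fibroblast and stellate markers were lower in the same libraries, 8 of 12, against 8.78% of all genes tested, and their part in the result was not tested. Cx3cl1, fractalkine, a membrane-bound chemokine that beta cells also make, was at 21.5 and 25.3 CPM on chow against 18.1, 18.3 and 16.1 CPM on high fat. It fell by a small amount without overlap (-0.39 ± 0.11, adjusted p = 0.0415), and only leaving out chow replicate 1 kept the call; the adjusted p was 0.133 without chow replicate 3 and 0.0886, 0.0888 and 0.122 without high-fat replicates 1, 2 and 3. Its receptor Cx3cr1, which is no member, was at 5.37 and 3.28 CPM with chow and 3.00, 3.58 and 3.62 CPM with the high-fat diet (adjusted p = 0.395).

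The chemokine ligand with the highest mean CPM was Ccl28, a mucosal chemokine, at 17.0 and 27.2 CPM across chow libraries and 18.9, 22.1 and 25.6 CPM in the high-fat libraries (0.03, adjusted p = 0.920). Cxcl12, which holds leukocytes and progenitors in tissue, was at 12.3 and 6.09 CPM on chow against 13.4, 11.6 and 16.2 CPM on high fat (0.59 ± 0.27, adjusted p = 0.150). Chow replicate 1 sat within the high-fat range, and without it the adjusted p was 0.0225. Ccl2 and Cxcl1, attractants of monocytes and of neutrophils, were below the filter: Ccl2 was under 3 reads in every library and Cxcl1 between 0.0810 and 0.257 CPM.

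No chemokine receptor passed the threshold: of 4 tested, 0 were called by limma (against 23.7% of all genes tested) and 0 had an unadjusted p below 0.05. Cxcr4, the receptor of Cxcl12, was at 2.82 and 4.82 CPM with chow and 5.6, 6.22 and 4.43 CPM with the high-fat diet (adjusted p = 0.193). Ccr2, the receptor of Ccl2 on monocytes, was at 3.29 and 0.974 CPM across chow libraries and 0.259, 1.67 and 1.48 CPM in the high-fat libraries (adjusted p = 0.402). The diets overlapped for both.

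The interleukins gave 0 calls by limma among 6 tested (against 23.7% of all genes tested), with 3 at an unadjusted p below 0.05. Il1b, the interleukin-1 that macrophages secrete, was at 0.957 and 0.979 CPM on chow against 0.295, 0.702 and 0.596 CPM on high fat. Its 3 high-fat libraries lay below chow, but the difference of -0.37 ± 0.17 had an adjusted p of 0.165. Il6 was under 3 reads in every library. Il17d, an interleukin-17 family ligand, was at 6.91 and 3.81 CPM with chow and 2.93, 2.94 and 2.72 CPM with the high-fat diet (-0.67 ± 0.22, adjusted p = 0.0663; 0.0114 without chow replicate 3). Il18bp, the secreted inhibitor of interleukin-18, was at 2.14 and 2.88 CPM across chow libraries and 4.44, 3.24 and 4.23 CPM in the high-fat libraries (0.50 ± 0.18, adjusted p = 0.0862). Il1a and Il1rn, the other agonist and the antagonist of interleukin-1, were below the filter in these islets, between 0.109 and 0.427 CPM and between 0.122 and 0.425 CPM.

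The interleukin receptors held both extremes of the members: of 24 tested, 4 were higher and 2 lower (25%, against 23.7% of all genes tested). Their median log2 difference was -0.06. Il1rapl2, an interleukin-1 receptor-like gene best known from neurons, was at 2.13 and 0.527 CPM on chow against 14.4, 9.71 and 9.17 CPM on high fat. Every high-fat library stood above both chow libraries, and the difference of 2.44 ± 0.32 (SE; limma adjusted p = 0.00342) was the largest rise of any tested member. Its call held whichever library was left out.

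Il31ra, the ligand-binding chain for interleukin-31, was at 5.46 and 2.38 CPM with chow and 0.359, 0.258 and 0.502 CPM with the high-fat diet. All 3 high-fat libraries lay far below both chow libraries, and the fall of -1.77 ± 0.28 (SE; adjusted p = 0.0063) was the largest of any tested member and held without each library in turn. Exons of Il31ra share 45 bases with Gm3226 on the same strand. Its ligand Il31 was under 3 reads in every library, and its partner chain Osmr, which is no member, was at 5.90 and 5.39 CPM across chow libraries and 3.20, 4.50 and 4.60 CPM in the high-fat libraries (adjusted p = 0.139).

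In the interleukin-1 system, the decoy receptor rose while the signalling receptor missed the threshold narrowly. Il1r2, which binds interleukin-1 without signalling, was at 1.44 and 2.71 CPM on chow against 3.92, 6.47 and 4.76 CPM on high fat. It was higher in all 3 high-fat libraries, by 0.99 ± 0.25 (SE; adjusted p = 0.0306), and the adjusted p was 0.144 without chow replicate 1, 0.0866 without high-fat replicate 2 and 0.0816 without high-fat replicate 3. Il1r1 was at 422 and 510 CPM with chow and 609, 660 and 712 CPM with the high-fat diet. Its diets did not overlap either, but the difference of 0.51 ± 0.15 (95% interval 0.15 to 0.86) had an adjusted p of 0.0508. It was 0.0258 without chow replicate 3 and 0.154 without chow replicate 1, and the difference was 0.010 (adjusted p = 0.963) with library size taken without acinar and insulin genes. The co-receptor Il1rap was at 7.79 and 7.25 CPM across chow libraries and 6.85, 8.22 and 5.87 CPM in the high-fat libraries (adjusted p = 0.654). The difference between the changes of Il1r2 and Il1r1 was not tested.

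Il6ra was at 170 and 219 CPM on chow against 268, 253 and 312 CPM on high fat. Each high-fat library stood above chow, by 0.52 ± 0.15 (SE; adjusted p = 0.0432), with 242 exonic bases shared with Gm42809 on the opposite strand. Its call was lost without chow replicate 1 (adjusted p = 0.164) and without high-fat replicates 1, 2 and 3 (0.0974, 0.0798 and 0.128), and kept without chow replicate 3. With library size taken without acinar and insulin genes the difference was 0.026 (adjusted p = 0.899), and with median ratios the adjusted p was 0.0520. Il6st, the signalling partner of Il6ra and of several related receptors, was at 96.5 and 72.7 CPM with chow and 77.0, 79.7 and 93.7 CPM with the high-fat diet, a difference of -0.01 ± 0.14 with overlap.

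Il17ra, the shared chain of interleukin-17 receptors, was at 14.6 and 14.5 CPM across chow libraries and 17.5, 20.5 and 19.1 CPM in the high-fat libraries. The groups were separate and the difference small (0.36 ± 0.10, adjusted p = 0.0421), and it turned to -0.11 when library size was computed without acinar and insulin genes. The call was lost whichever library was left out: 0.112 and 0.0834 without chow replicates 1 and 3, and 0.0610, 0.134 and 0.115 without high-fat replicates 1, 2 and 3 (adjusted p). Il11ra1, the interleukin-11 receptor, was at 17.4 and 12.8 CPM on chow against 9.77, 9.78 and 8.66 CPM on high fat. It fell in all 3 high-fat libraries, by -0.62 ± 0.15 (SE; adjusted p = 0.0271), and lost its call without chow replicate 1 (adjusted p = 0.116) and without high-fat replicates 1, 2 and 3 (0.0646, 0.0708 and 0.0857). Reads of Il11ra1 may be split with its near-identical copy Il11ra2, and 8 exonic bases are shared with Ccl27a.

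**Figure D3:**
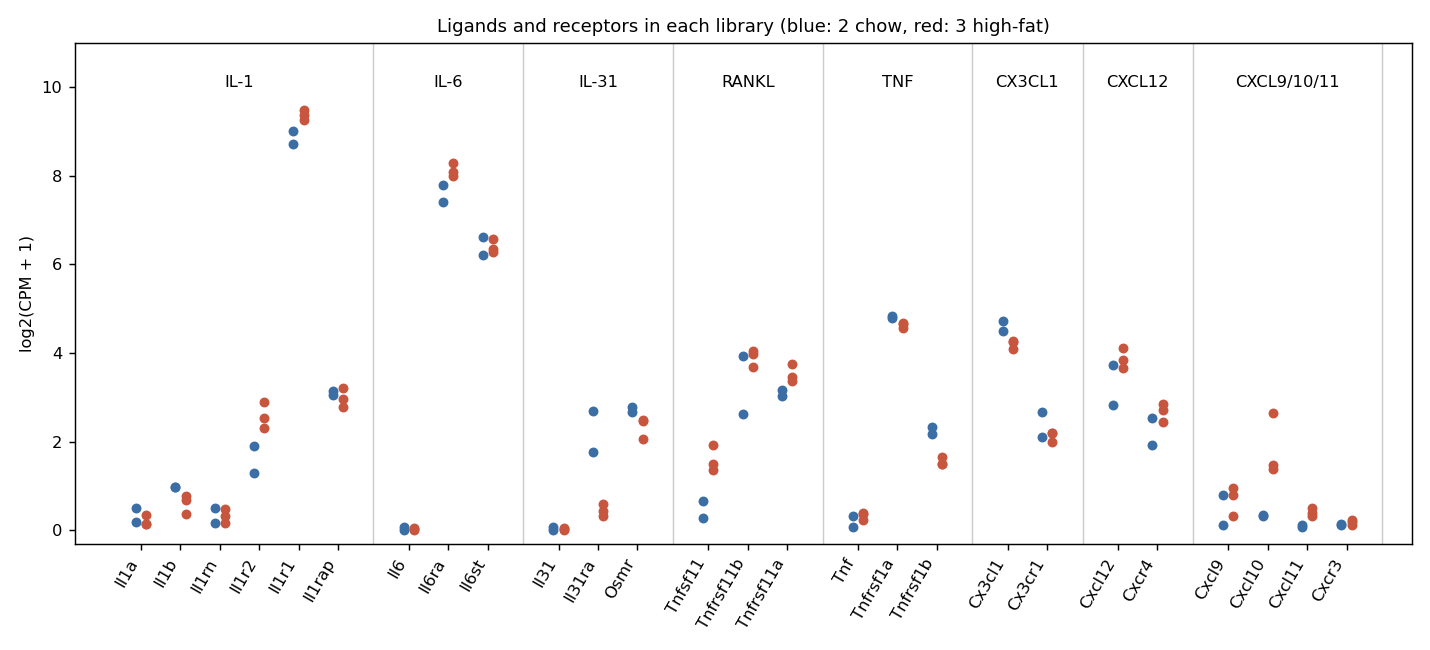
log2(CPM + 1) of ligands, their receptors and decoys in each library, with 2 chow libraries in blue and 3 high-fat libraries in red; heights of different genes are not corrected for length. Il1r1 and Il6ra sit far above their ligands, and Il31ra and Cxcl10 separate the diets in opposite directions.

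Of 7 TNF superfamily ligands tested, 1 was higher and 0 lower (14.3%, against 23.7% of all genes tested), with a median log2 difference of -0.07. Tnfsf11, known as RANKL, the ligand of the receptor RANK in bone and immune cells, was at 0.213 and 0.578 CPM with chow and 2.78, 1.57 and 1.81 CPM with the high-fat diet. All high-fat libraries exceeded both chow libraries, by 1.12 ± 0.22 (SE; limma adjusted p = 0.0146), and the call was lost without chow replicate 1 (adjusted p = 0.0764). Its receptor Tnfrsf11a was at 8.03 and 7.21 CPM across chow libraries and 9.92, 12.6 and 9.40 CPM in the high-fat libraries (0.42 ± 0.15, adjusted p = 0.0791). Its soluble decoy Tnfrsf11b, osteoprotegerin, was at 5.21 and 14.3 CPM on chow against 14.7, 15.5 and 11.9 CPM on high fat (adjusted p = 0.234), and chow replicate 1 was the only low library. Both were named after their values were seen.

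The 2 TNF ligands with the highest mean CPM did not pass the threshold. Tnfsf10, the death ligand TRAIL, was at 15.5 and 13.6 CPM with chow and 12.2, 15.1 and 14.3 CPM with the high-fat diet (-0.07, adjusted p = 0.719). Tnfsf12, TWEAK, was at 9.61 and 10.1 CPM across chow libraries and 7.99, 9.22 and 7.95 CPM in the high-fat libraries (-0.21, adjusted p = 0.240), and a read-through transcript, Tnfsfm13, shares exons with it. Tnf itself was below the filter, between 0.0532 and 0.305 CPM.

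Of 14 TNF receptors tested, 1 was higher and 1 lower (14.3%, against 23.7% of all genes tested). Tnfrsf1b, the second TNF receptor, carried mainly by leukocytes and endothelium, was at 4.05 and 3.54 CPM on chow against 1.82, 2.14 and 1.84 CPM on high fat. It was lower in every high-fat library, by -0.71 ± 0.15 (SE; adjusted p = 0.0177), with an adjusted p of 0.0887 without chow replicate 1, 0.0533 without high-fat replicate 1 and 0.0606 without high-fat replicate 3. The widely expressed first TNF receptor, Tnfrsf1a, was at 26.7 and 27.5 CPM with chow and 24.3, 22.8 and 24.5 CPM with the high-fat diet (-0.18 ± 0.08, adjusted p = 0.163). Endothelial markers were lower in 4 of 12 cases beside Tnfrsf1b, and general leukocyte markers in 0 of 8. Macrophage markers were lower in 2 of 15 cases and higher in 1, and B-cell and plasma-cell markers were lower in 1 of 6. Over all genes tested 8.78% were lower. The part of these cell types in the result for Tnfrsf1b was not tested.

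Tnfrsf9, the T-cell co-stimulatory receptor 4-1BB, was at 1.38 and 1.90 CPM across chow libraries and 2.91, 2.89 and 3.11 CPM in the high-fat libraries. The 3 high-fat libraries lay close together above chow (0.59 ± 0.16, adjusted p = 0.0355), and the call was lost without chow replicate 1 (0.167) and without high-fat replicates 1, 2 and 3 (0.0807, 0.0912 and 0.103). The 14 T- and NK-cell genes summed to 3.75 and 2.69 CPM on chow and 6.06, 7.80 and 6.16 CPM on high fat, without overlap. The 13 genes other than Cd3e summed to 3.53 and 2.57 CPM on chow and 2.20, 3.59 and 3.07 CPM on high fat, with overlap. Cd3e was set apart after its value was seen. The part of T and NK cells in the result for Tnfrsf9 was not tested. With library size taken without acinar and insulin genes the difference of Tnfrsf9 was 0.29 (adjusted p = 0.234). Tnfrsf21, death receptor 6, was at 17.4 and 13.7 CPM on chow against 18.4, 20.8 and 25.2 CPM on high fat (0.44 ± 0.16, adjusted p = 0.0846).

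The TNFAIP genes are named for induction by TNF but have unrelated functions. Of 6 tested, 2 were higher and 0 lower (33.3%, against 23.7% of all genes tested). Tnfaip1, an adaptor of a ubiquitin ligase, was at 31.1 and 33.3 CPM with chow and 41.9, 40.1 and 44.2 CPM with the high-fat diet, a small rise without overlap (0.38 ± 0.08, adjusted p = 0.0216) that became -0.11 with library size taken without acinar and insulin genes. The adjusted p of Tnfaip1 was 0.0741 without chow replicate 1 and 0.0674, 0.0554 and 0.0775 without high-fat replicates 1, 2 and 3. Tnfaip8l3, a lipid-transfer protein, was at 2.07 and 1.86 CPM across chow libraries and 3.42, 3.02 and 3.49 CPM in the high-fat libraries. It rose by 0.54 ± 0.15 (SE; adjusted p = 0.0381), and the adjusted p was 0.0985 and 0.110 without chow replicates 1 and 3 and 0.0942, 0.0779 and 0.111 without high-fat replicates 1, 2 and 3. Tnfaip8 was at 12.4 and 13.9 CPM on chow against 14.8, 14.8 and 11.5 CPM on high fat (adjusted p = 0.841). Tnfaip3, the ubiquitin-editing enzyme A20 that ends NF-kB signalling, was at 5.21 and 5.8 CPM with chow and 6.11, 6.49 and 6.64 CPM with the high-fat diet (0.19 ± 0.13, adjusted p = 0.307).

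**Figure D4:**
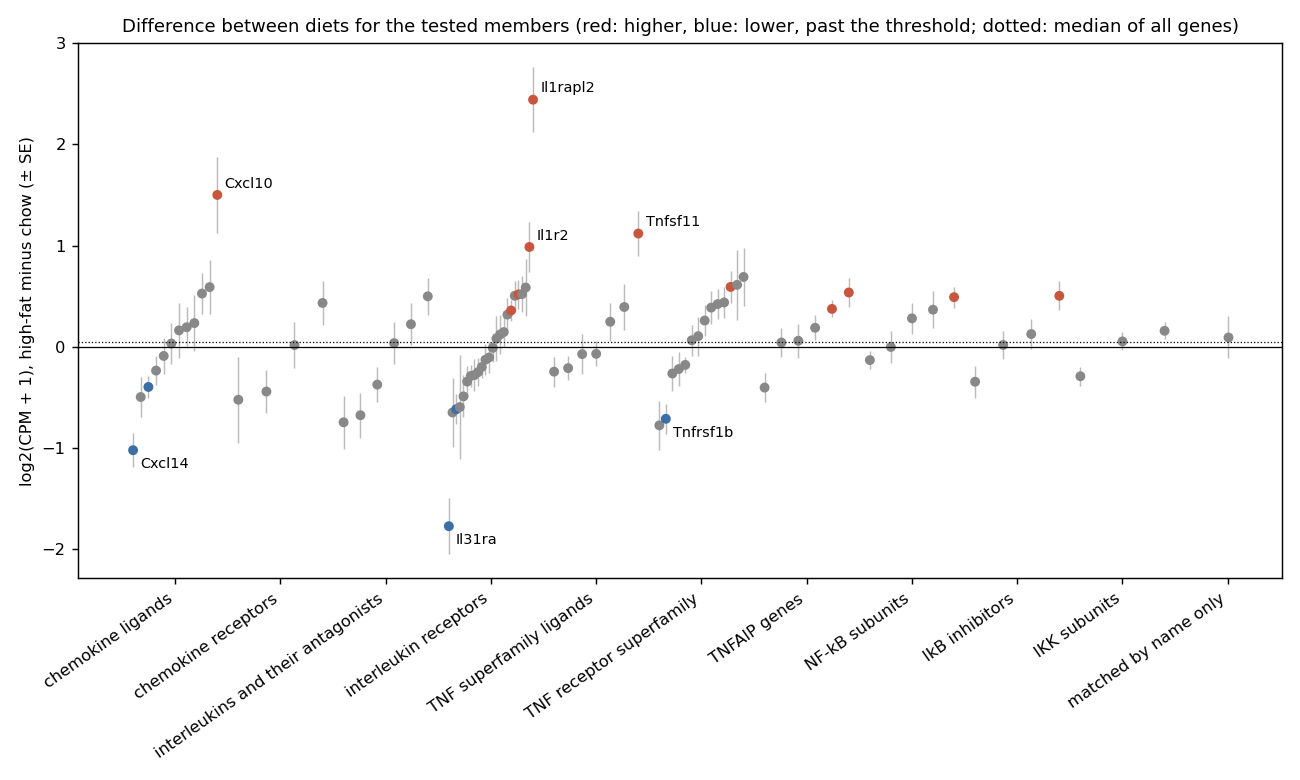
Difference in log2(CPM + 1) between diets with its standard error for each tested member, by role; red and blue points passed the threshold as higher and lower. Il1rapl2 at 2.44 and Il31ra at -1.77 are the extremes, and the other points spread to both sides of the dotted median of all genes, 0.05.

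Of the 5 NF-kB subunits, 1 was higher and 0 lower (20%, against 23.7% of all genes tested). Nfkb1, whose precursor is processed to the p50 subunit, was at 35.3 and 43.4 CPM across chow libraries and 52.9, 57.4 and 56.1 CPM in the high-fat libraries. The diets were well apart, by 0.49 ± 0.10 (SE; adjusted p = 0.0186), and the adjusted p was 0.0551 without chow replicate 1, 0.0690 without high-fat replicate 2 and 0.0651 without high-fat replicate 3. With library size taken without acinar and insulin genes the difference of Nfkb1 was 0.01 (adjusted p = 0.965). Rela, the p65 subunit that activates transcription, was at 22.2 and 21.1 CPM on chow against 18.6, 20.1 and 20.4 CPM on high fat (-0.13 ± 0.09, adjusted p = 0.328). Nfkb2, Rel and Relb were not called, with differences from 0.00 to 0.37.

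Of the 4 IkB genes, 1 was higher (25%, against 23.7% of all genes tested called in either direction). Nfkbib, IkB-beta, was at 7.32 and 6.34 CPM with chow and 10.8, 8.70 and 10.9 CPM with the high-fat diet. It rose by 0.50 ± 0.14 (SE; adjusted p = 0.0421), the call was lost without each library in turn (0.0765 and 0.128 without chow replicates 1 and 3, and 0.116, 0.0505 and 0.127 without high-fat replicates 1, 2 and 3), and its exons share 314 bases with Ccer2 and 42 with Sirt2 on the opposite strand. The difference of Nfkbib was 0.065 (adjusted p = 0.720) with library size taken without acinar and insulin genes, and its adjusted p was 0.0692 with the trimmed mean of M values and 0.0703 with median ratios. Nfkbia, IkB-alpha, the inhibitor that NF-kB itself induces most directly, was at 29.0 and 31.6 CPM across chow libraries and 28.7, 27.3 and 37.0 CPM in the high-fat libraries, with overlapping diets and a difference of 0.02 ± 0.14 (adjusted p = 0.929). Nfkbiz, a nuclear IkB protein, was at 26.9 and 38 CPM on chow against 22.1, 25.7 and 27.4 CPM on high fat (-0.34 ± 0.16, adjusted p = 0.160; 0.0419 without chow replicate 1).

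The 3 IKK genes gave 0 calls by limma (against 23.7% of all genes tested), with 1 at an unadjusted p below 0.05. That was Chuk, IKK-alpha, at 37.6 and 35.1 CPM with chow and 27.5, 29.7 and 31.6 CPM with the high-fat diet (-0.29 ± 0.09, adjusted p = 0.0605). Chuk passed as lower with the trimmed mean of M values (adjusted p = 0.0316), with median ratios (0.0310), with library size taken without acinar and insulin genes (-0.78, 0.00128) and with all 6 columns (0.0123). It did not pass with an acinar covariate (0.181), no variance trend (0.111), no filter (0.194) or a minimum of 1 CPM (0.0587). Nor did it with pseudocounts of 0.5 and 2 (0.0607 each) or without high-fat replicates 1, 2 and 3 (0.163, 0.147 and 0.0871). Without chow replicates 1 and 3 the difference was -0.24 and -0.34. Ikbkg, the regulatory subunit NEMO, was at 25.1 and 27.9 CPM across chow libraries and 26.9, 28.8 and 26.9 CPM in the high-fat libraries (0.06, adjusted p = 0.683). Il4i1, Il1bos and Tnfsf13os are an enzyme and antisense genes that matched by name only, and 0 of the 1 tested was called.

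Genes around these members were read from lists of pathway parts. Of 48 other NF-kB pathway genes tested 2 were higher and 3 lower (10.4%, against 23.7% of all genes tested), with a median log2 difference of 0.06. Traf3, an adaptor that restrains the alternative NF-kB pathway, was higher (0.54, adjusted p = 0.0297), while Card10, a scaffold upstream of IKK (-0.69, adjusted p = 0.0148), Ngfr, a neurotrophin receptor of the TNF family (-0.72, adjusted p = 0.0304), and Tlr2, a receptor for bacterial lipoproteins (-0.45, adjusted p = 0.0288), were lower. Myd88, the adaptor of interleukin-1 and Toll-like receptors, named after its value was seen, was at 9.34 and 9.85 CPM on chow against 12.3, 13.2 and 15.4 CPM on high fat (0.46, adjusted p = 0.0376).

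Of 29 JAK-STAT genes tested, the kinases and transcription factors downstream of many interleukin receptors and their regulators, 4 were higher and 1 lower. That is 17.2%, against 23.7% of all genes tested, and the median log2 difference was 0.10. Socs5, a suppressor of cytokine signalling, was at 24.1 and 34.1 CPM with chow and 57.4, 61.2 and 56.3 CPM with the high-fat diet (1.0, adjusted p = 0.00447). Lifr, a receptor that pairs with Il6st, was at 87.1 and 81.2 CPM across chow libraries and 144, 124 and 150 CPM in the high-fat libraries (0.72, adjusted p = 0.00523). The phosphatase Ptpn11 was also higher (0.52, adjusted p = 0.0238) and the kinase Jak2 lower (-0.46, adjusted p = 0.00957). Socs3, the feedback inhibitor of interleukin-6 signalling, named after its value was seen, rose by 0.61 (adjusted p = 0.0353).

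Of 21 NF-kB target genes tested, 2 were higher and 4 lower (28.6%, against 23.7% of all genes tested), with a median log2 difference of -0.05. Junb (-1.19, adjusted p = 0.0059), an AP-1 subunit, and Csf1 (-0.72, adjusted p = 0.0278), the macrophage growth factor, were lower. Relt (0.59, adjusted p = 0.0218), a TNF receptor family member, and Cebpb (0.79, adjusted p = 0.0287), a transcription factor of inflammatory genes, were higher. Junb is also in the list of immediate early genes, those that dissociation and stress induce within minutes. Of 17 tested, 9 were lower and 2 higher (median -0.64), against 8.78% lower and 14.9% higher over all genes. Fos, Egr1 and Zfp36 were among the lower ones. That list and the target list share Junb and Ier3, and the part of immediate early induction in the target counts was not tested.

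How the libraries are scaled decided the split of calls. The members gave 11 higher and 5 lower with the deposited scaling, 8 and 7 with the trimmed mean of M values, 7 and 7 with median ratios, and 3 and 34 with library size taken without acinar and insulin genes. Over all 16939 genes tested the counts, in the same order, were 2524 and 1487, 2150 and 1859, 2118 and 1874, and 801 and 7539. That last scaling moved the median of all genes from 0.05 to -0.38 and of the members to -0.31. It divides by the sum of the remaining genes, so it also takes up the unequal column totals. The shift and the lost calls are therefore not those of acinar and insulin genes alone. The part of the totals and the part of these genes in them was not tested. Of the 16 called members 8 kept their call under that scaling. They were Il1rapl2, Tnfsf11 and Cxcl10 as higher and Il31ra, Cxcl14, Tnfrsf1b, Il11ra1 and Cx3cl1 as lower. Because the scaling moved the median of all genes down, the 5 lower members could hardly lose their call, and its keeping is no support. Tnfaip1 and Il17ra changed sign. The difference of Il1r2 was then 0.68 (adjusted p = 0.0797) and that of Tnfaip8l3 0.20 (adjusted p = 0.334), neither called. With an acinar gene score as a covariate 3 members were higher and 1 lower, against 1017 higher and 625 lower over all genes. Under it 4 of the 16 kept their call, namely Nfkbib, Tnfsf11, Il1rapl2 and Il31ra.

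**Figure D5:**
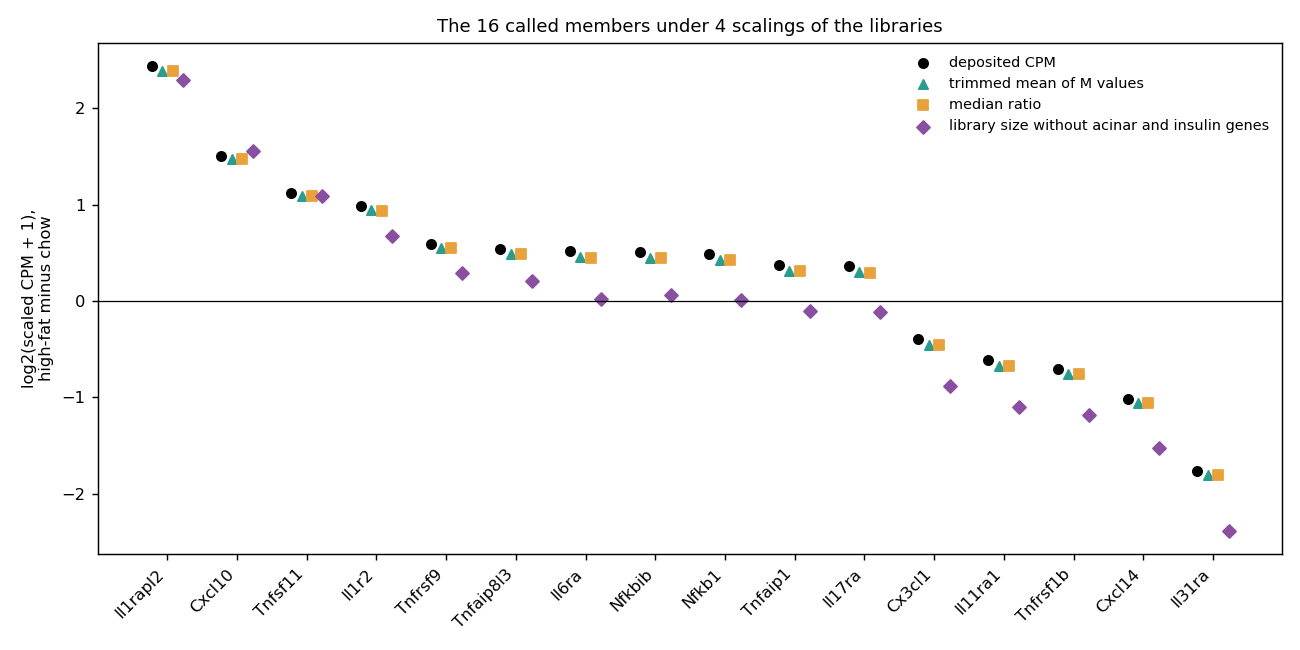
Difference in log2(CPM + 1) for the 16 called members under 4 scalings of the libraries. Il1rapl2, Tnfsf11, Cxcl10 and the 5 lower members keep their side under all 4, while Tnfaip1 and Il17ra fall to -0.11 when library size leaves out acinar and insulin genes. That last scaling moves the median of all genes to -0.38, so the 5 lower members could hardly change side under it.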

How the data were processed

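RNA was extracted from isolated islets with Trizol, per the labels' protocols. The authors deposited 1 table of 6 columns. Every value is at least 1, and the values behave as CPM with 1 added, so 1 was subtracted. Partek is named in the submitters' processing notes; no source used here names the aligner, genome build, annotation or strand use. The steps between low values imply 18807598 to 35050824 reads per library, so 3 reads equal 0.0856 to 0.160 CPM; between 62.4% and 67.7% of values up to 20 reads were whole within 0.1 read, too few for a count test. Chow replicate 2, the mean of the other chow columns, was left out. limma 3.58.1 (R 4.3.3) was fitted to log2(CPM + 1), its prior variance allowed a trend, on the 16939 genes averaging 0.5 CPM or more, with Benjamini-Hochberg adjustment over all of them and a threshold of 0.05. The fit was tested on simulated data. Exon lengths and overlaps came from GENCODE M21, promoters from RefSeq GRCm38.p6.

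Members and lists were chosen with earlier results of these data known. Text names every called member, the 2 highest-mean members of each role, 13 fixed genes (Il1b, Il6, Tnf, Ccl2, Cxcl1, Cxcl10, Cxcl12, Il1r1, Tnfrsf1a, Nfkb1, Rela, Nfkbia, Tnfaip3) and the 4 smallest p-values among the called genes of each list; other genes were named after their values were seen. Alternatives were scaling, filter, pseudocount, the sixth column, an acinar covariate, no variance trend and each library left out. The lists of ductal and of other islet genes are not reported here.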

Additional observations from a re-analysis of the deposited data

How the results depend on the processing

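No paired analysis was possible because the labels give no replicate numbers that link the diets. The members' counts (higher, lower) were 11 and 5. They became 7 higher with median-ratio scaling, 3 and 34 with library size without acinar and insulin genes, 0 and 0 with no filter (limma; 38 members at an unadjusted p below 0.05), 18 and 15 with all 6 columns and 3 and 1 with an acinar covariate. Leaving out single libraries gave 2 to 11 higher and 2 to 6 lower. The other pathway genes, 2 higher and 3 lower, became 1 higher with median-ratio scaling, 0 and 26 without acinar and insulin genes, 0 and 0 with no filter, 6 and 6 with all 6 columns, 0 and 0 with the acinar covariate and 0 higher with no variance trend. Leaving out libraries gave 0 to 1 higher and 0 to 1 lower. The 6-column fit counts chow replicates 1 and 3 again in their mean, and leaving out a chow library leaves 1, assumed to vary like the high-fat libraries. Otherwise the cause was not tested. Over all genes tested 2524 were higher and 1487 lower. These became 558 and 373 of 48321 genes with no filter, 4282 and 2796 with all 6 columns and 1017 and 625 with the acinar covariate.

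Signs turned for the trimmed mean of M values, median ratios, library size without acinar and insulin genes and, for the first 3 genes, the acinar covariate as follows: Ikbkg -0.0085, -0.011, -0.43 and -0.027; Tnfaip8 -0.017, -0.019, -0.43 and -0.0053; Ccl28 -0.029, -0.032, -0.45 and -0.22; Nfkbia -0.044, -0.046 and -0.47, but 0.034 with the acinar covariate. Only without acinar and insulin genes did Tnfrsf21 (-0.030), Tnfaip1 (-0.11), Tnfaip3 (-0.25) and Il17ra (-0.11) turn. Leaving out single libraries also turned some signs, with ranges of Ikbkg -0.019 to 0.13, Nfkbia -0.11 to 0.10, Tnfsf10 -0.16 to 0.024, Tnfaip8 -0.033 to 0.16, Ccl28 -0.29 to 0.36 and Ccr2 -1.08 to 0.038.

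Il1rapl2 and Il31ra kept their call in 14 of 15 alternatives and lost it with no filter. Pseudocounts of 0.5 and 2 gave the same counts, 11 and 5, and a minimum of 1 CPM gave 12 and 5. At 3 reads the floor is up to 0.160 CPM, so the genes below it could not be compared.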
